A study of Homo sapiens with 4 samples.

Results

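The mitochondrial protein import machinery was taken as the protein-coding genes whose names begin with TOMM or TIMM and a digit, together with PAM16, SAMM50, PMPCA, PMPCB, GRPEL1 and GRPEL2. This rule matched 31 of the 58735 genes in the deposited table, on 17 chromosomes. OVCAR8 cells, an established line from a human ovarian carcinoma, gave 2 RNA-seq libraries of shFAM49B cells, whose hairpins target FAM49B, the gene under study (genotype label Knockdown FAM49B gene), and 2 libraries of shCON cells, which carried a scrambled hairpin (genotype label WT). Both groups received GIPZ lentiviral plasmids by transient lipofection and were collected after 36 h, per the labels' protocols, although the design text calls the knockdown stable. No label ties the replicates to separate cultures, so p-values measure the spread between these libraries, which may be technical.

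Most mitochondrial proteins are made in the cytosol and imported unfolded. The TOM complex of the outer membrane holds receptors and a channel. Behind it, SAM inserts outer-membrane barrels, small TIM chaperones carry hydrophobic proteins across the intermembrane space, TIM22 inserts carriers into the inner membrane, and TIM23 with its ATP-driven motor (PAM) moves presequence proteins into the matrix. There the processing peptidase removes the presequence. Values are FPKM as the authors deposited them (fragments per kilobase of gene, scaled by a factor for each library), which allow levels of different genes to be compared per length. That factor was not read depth alone. Its denominator was 0.941 and 0.919 of the reads recovered from the values in shFAM49B and 1.08 and 1.10 in shCON.

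With the values as deposited, 12 of the 28 import genes that could be tested rose in shFAM49B, none fell and 16 did not pass. The rises lay in the TOM receptors and channel (TOMM20, TOMM22, TOMM40, TOMM7), in part of the presequence translocase (TIMM17B, TIMM50), in both subunits of the processing peptidase, and in SAMM50, TIMM29, TIMM13 and TIMM9. All were small, 1.15-fold to 1.87-fold. None of the 4 genes of the import motor passed. Of the 12, 6 genes (TOMM7, TOMM40, TOMM22, TIMM17B, TIMM50 and PMPCB) were also called higher under all 4 other scalings of the libraries. Their changes stayed positive without each library in turn. The share of all tested genes called higher under every scaling was not counted, so holding the call is not shown to be particular to import genes. The test was limma on log2(FPKM + 1) over the 13775 genes that averaged 1 FPKM or more, with Benjamini-Hochberg adjustment and a threshold of 0.05. It called 42.2% of all tested genes, 26.4% higher and 15.8% lower, against 42.9% of the tested import genes higher and 0% lower. Among tested protein-coding genes, the class from which the import genes were drawn, 28.6% were higher and 15.6% lower. The median log2 fold change was 0.19 over the 28 import genes, 0.05 over all tested genes and 0.07 over the protein-coding ones. The import median turned negative under 3 of the 4 other scalings. Under those 4 scalings 7 or 8 import genes were called higher and 1 to 6 lower, with TIMM23 lower under each. Of all tested genes, 11.6% to 19.2% were then higher and 17.8% to 37% lower.

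Both shFAM49B libraries lay above both shCON libraries for 18 import genes and below them for 4, and the groups overlapped for 6. Over all tested genes the corresponding shares were 43.1% above and 31.6% below. Of the 11400 tested protein-coding genes, 5275 (46.3%) lay above and 3588 below. TOMM5, TOMM6 and TOMM20L stood under a mean of 1 FPKM and were not tested. The FPKM of all 31 genes summed to 771 and 792 in shFAM49B and to 645 and 648 in shCON. As a share of each library's summed FPKM, the same genes took 0.265% and 0.264% in shFAM49B and 0.257% and 0.262% in shCON. Both shares in shFAM49B were the higher ones, by less than the absolute sums were. The summed FPKM of all genes was also higher in both shFAM49B libraries, at 291076 and 300214, against 251272 and 247706 in shCON.

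**Figure D1:**
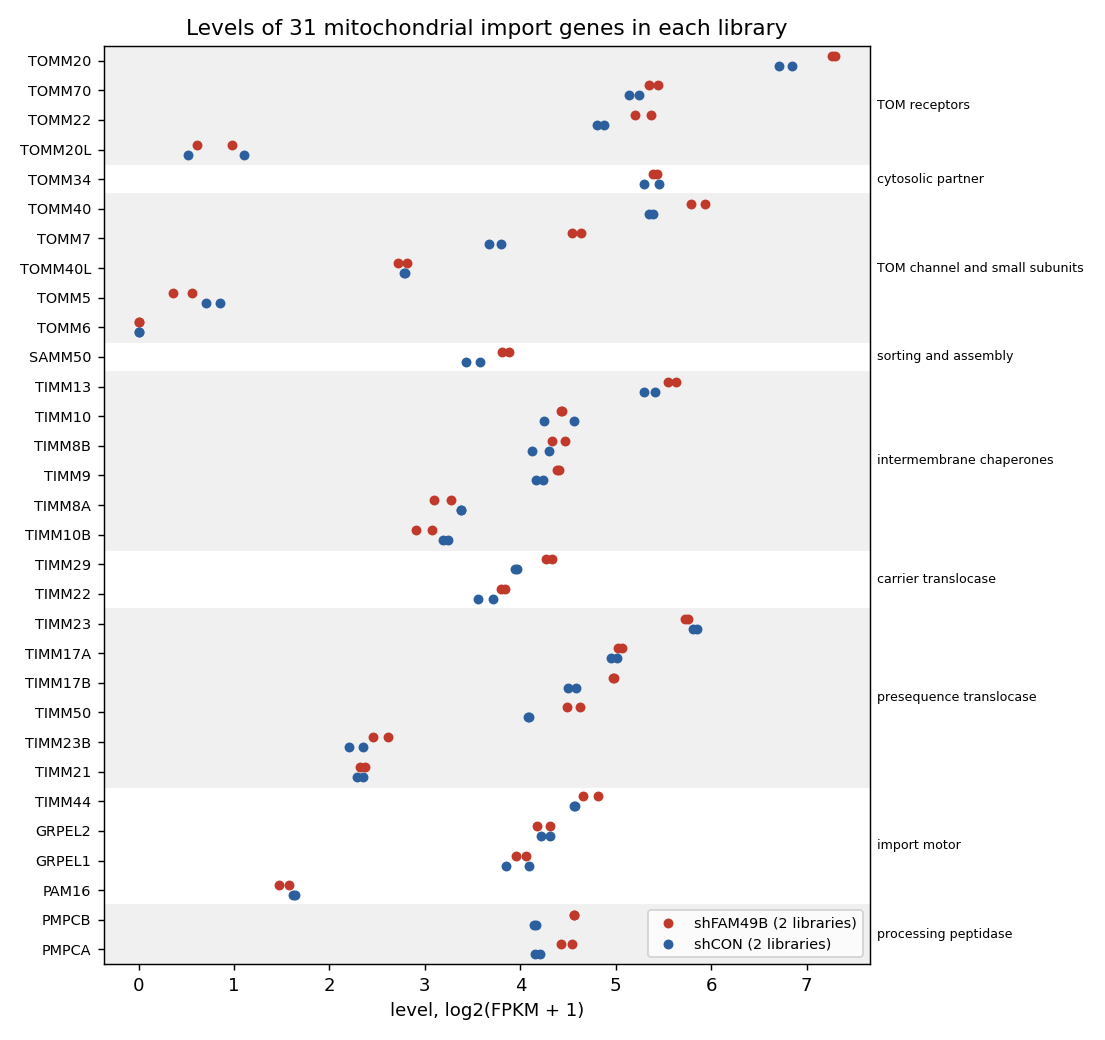
Levels of the 31 import genes on the log2(FPKM + 1) axis, 1 point per library, grouped by role and ordered by mean level within a role. TOMM20 is the most abundant, TOMM6 is listed at 0 in all 4 libraries, and both shFAM49B points lie to the right of both shCON points for TOMM20, TOMM70, TOMM22, TOMM40 and TOMM7 and, in the import motor, for TIMM44 only.

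FAM49B itself, the target of the hairpins, stood at 1.06 and 1.02 FPKM in shFAM49B and at 7.41 and 7.60 FPKM in shCON, a log2 fold change of -2.06 (limma adjusted p = 0.00054), as the labels say. The 4 libraries held 16288871 and 16290200 recovered reads in shFAM49B and 15639559 and 16875353 in shCON. Among 7 markers of ovarian carcinoma, KRT8 and KRT18 were at 23.2 to 41.7 FPKM, but PAX8 and MUC16 were at or near 0, at no more than 0.112 and 0.00305 FPKM. EPCAM, an epithelial adhesion protein, stood at 0.129 and 0.345 FPKM in shFAM49B and at 2.94 and 2.96 FPKM in shCON. In such bulk RNA, fewer cells with a transcript and less of it per cell cannot be told apart. Markers of immune (4 genes) and endothelial cells (3 genes) summed to at most 0.574 and 0.218 FPKM in any library, and 1 of 4 fibroblast genes, COL1A1, exceeded a mean of 1 FPKM, with sums of 6.09 to 6.65 FPKM in shFAM49B and 5.79 to 6.37 FPKM in shCON. The ovarian carcinoma markers summed to 62.7 to 63.4 FPKM in shFAM49B and 72.0 to 74.3 FPKM in shCON, and their part in the results was not tested.

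Promoter sequences were available for 28 of the 31 genes, from 250 bases before to 50 after the RefSeq start (GRCh38.p14). They are shown because many nuclear genes of mitochondria carry the recognition letters of NRF1, a transcription factor of such genes. These letters, GCGCA and GCGC spaced by 1 base, were searched on both strands. They occurred in 7 of the 28 windows (25.0%), against 6.28% of 27305 RefSeq promoters and 12.4% of the 9369 that belong to tested genes. The stretches below are 30 bases long, run 5′ to 3′ on the gene's strand, end before its start, and carry the match in capitals. The first 4 genes were called higher in shFAM49B and the last 2 were not.
TOMM7 (chr7:22822850-22822879, minus strand): gtaaaggccgtgtgtgGCGCCTGCGCacct
TOMM20 (chr1:235128919-235128948, minus strand): ttcgcccactGCGCAGGCGCaggagccgcg
TOMM40 (chr19:44891022-44891051, plus strand): gagccaatagGCGCAGGCGCtgcgagccaa
TIMM29 (chr19:10928727-10928756, plus strand): ggtaaagttgGCGCTTGCGCagaagagact
TOMM34 (chr20:44960398-44960427, minus strand): gagatattcgccgccgGCGCTTGCGCccgg
PAM16 (chr16:4351326-4351355, minus strand): gcgccgtatcGCGCACGCGCtctctgcggc

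The match began 14 bases before the start in TOMM7 and TOMM34, 24 before it in PAM16, 74 in TIMM29, 101 in TOMM20 and 222 in TOMM40. TIMM29 had a second match, 190 bases before its start. The seventh gene was GRPEL2, whose match lies after the start and is not shown. Matches were found in 4 of the 12 genes called higher and in 3 of the 14 matched genes that did not pass, so genes with these letters stood on both sides. Of 4 other motifs searched on both strands, CCGGAAGT (ETS factors) occurred in 25.0% of the import windows and 9.29% of tested genes' promoters. AAGATGGC (YY1) occurred in 10.7% and 5.74%, and CCAAT in 39.3% and 37.1%. The heat shock element, GAA, TTC and GAA spaced by 2 bases each, occurred in 0% and 0.288%. These import shares count all 28 windows. Of the 26 windows of tested import genes, 7 held the NRF1 letters, 6 the ETS letters, 3 the YY1 letters, 11 CCAAT and 0 the heat shock element. In no import window did matches of different motifs overlap. A match describes the letters in the window and was not tested as a binding site.

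The receptors of the TOM complex hand incoming proteins to the channel. TOMM20, which binds presequences, was the most abundant import gene, at 156 and 153 FPKM in shFAM49B and 114 and 104 FPKM in shCON. Both shFAM49B libraries lay well above both shCON libraries. Its mean was 155 ± 2.19 FPKM in shFAM49B and 109 ± 7.04 FPKM in shCON (SD, n = 2 each), 1.42-fold higher (log2 fold change 0.50, SE 0.0655, limma adjusted p = 0.00441). After quantile normalization the change was 0.06 and did not pass (limma adjusted p = 0.498), whereas the other 3 scalings and all 4 fits without 1 library kept the call. TOMM20 shared 5.42% of its 50-base stretches with transcripts of other genes, among them the processed pseudogene TOMM20P4.

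TOMM22, the central receptor that also organizes the complex, had 35.9 and 40.4 FPKM in shFAM49B against 28.3 and 27.0 FPKM in shCON. It rose 1.38-fold (log2 fold change 0.45, SE 0.0756, limma adjusted p = 0.00858). TOMM70, the receptor for carriers and other proteins with internal signals, had 42.4 and 39.9 FPKM in shFAM49B against 36.9 and 34.3 FPKM in shCON. The TOMM70 groups did not overlap, but its log2 fold change of 0.20 missed the threshold (95% interval 0.04 to 0.37, limma adjusted p = 0.0557). It passed with a filter at 5 FPKM (adjusted p = 0.0324) and with the replicate number as a block (adjusted p = 0.049), while its sign turned negative under all 4 other scalings. TOMM20L, a TOMM20 relative, was covered by 5 to 12 reads per library and was not tested. TOMM34, a cytosolic co-chaperone that binds preproteins, stood at 41.0 and 42.0 FPKM in shFAM49B and at 38.4 and 43.0 FPKM in shCON, so the shFAM49B values lay inside the shCON range (log2 fold change 0.03, 95% interval -0.15 to 0.21). The change was negative under all 4 other scalings, at -0.19 to -0.22, and TOMM34 was called lower with voom.

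The largest change among the tested import genes was that of TOMM7. This gene, a small subunit that modulates assembly of the complex and stabilizes PINK1 on damaged mitochondria, had 22.2 and 23.9 FPKM in shFAM49B against 11.8 and 12.9 FPKM in shCON. TOMM7 lies at chr7:22812628-22822852 on the minus strand (GRCh38). The lower shFAM49B library was above the higher shCON library by more than the spread within either group. TOMM7 averaged 23.1 ± 1.197 FPKM in shFAM49B and 12.4 ± 0.819 FPKM in shCON (SD, n = 2 each), 1.87-fold higher (log2 fold change 0.85, SE 0.0736, limma adjusted p = 0.00205). Under the other scalings its log2 fold change was 0.64 to 0.73, each past the threshold. Its exons overlapped no other gene and 0.111% of its 50-base stretches occurred elsewhere.

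TOMM40, the channel itself, had 54.4 and 60.2 FPKM in shFAM49B against 39.7 and 40.9 FPKM in shCON. It rose 1.42-fold (log2 fold change 0.50, SE 0.0683, limma adjusted p = 0.00501). Its paralog TOMM40L stood at 6.05 and 5.57 FPKM in shFAM49B and at 5.91 and 5.89 FPKM in shCON, with overlapping groups (log2 fold change -0.02, 95% interval -0.20 to 0.16). The other small subunits, TOMM5 and TOMM6, were too low for the filter. TOMM5 had 16 and 26 reads in shFAM49B against 39 and 54 in shCON, or 0.286 and 0.477 FPKM against 0.634 and 0.801 FPKM. Both shFAM49B libraries were below both shCON libraries, opposite in sign to TOMM7, and without a filter TOMM5 did not pass (log2 fold change -0.32, 95% interval -0.71 to 0.08, limma adjusted p = 0.257). TOMM6 was listed at 0 in all 4 libraries. At 3 reads a count of 0 allows up to 0.307 and 0.315 FPKM in shFAM49B and 0.279 and 0.255 FPKM in shCON, which covers counting error only and does not bound its expression, since it has no exon base of its own.

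Both of these genes share exons with longer transcripts. All 637 exon bases of TOMM6 lie within exons of AL365205.1 on the same strand in GENCODE release 29, and that gene stood at no more than 0.229 FPKM. For TOMM5, 18.7% of exon bases are shared on the same strand with AL138752.2 or AL513165.2, and 2964 bases are not. PAM16 shares 21.9% of its exon bases with the readthrough gene CORO7-PAM16, which was listed at 0 in all libraries. The part that shared exons play in these low values was not tested. Of the 31 genes, 13 had no exon overlap on either strand and 10 had more than 10% of exon bases overlapped.

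**Figure D2:**
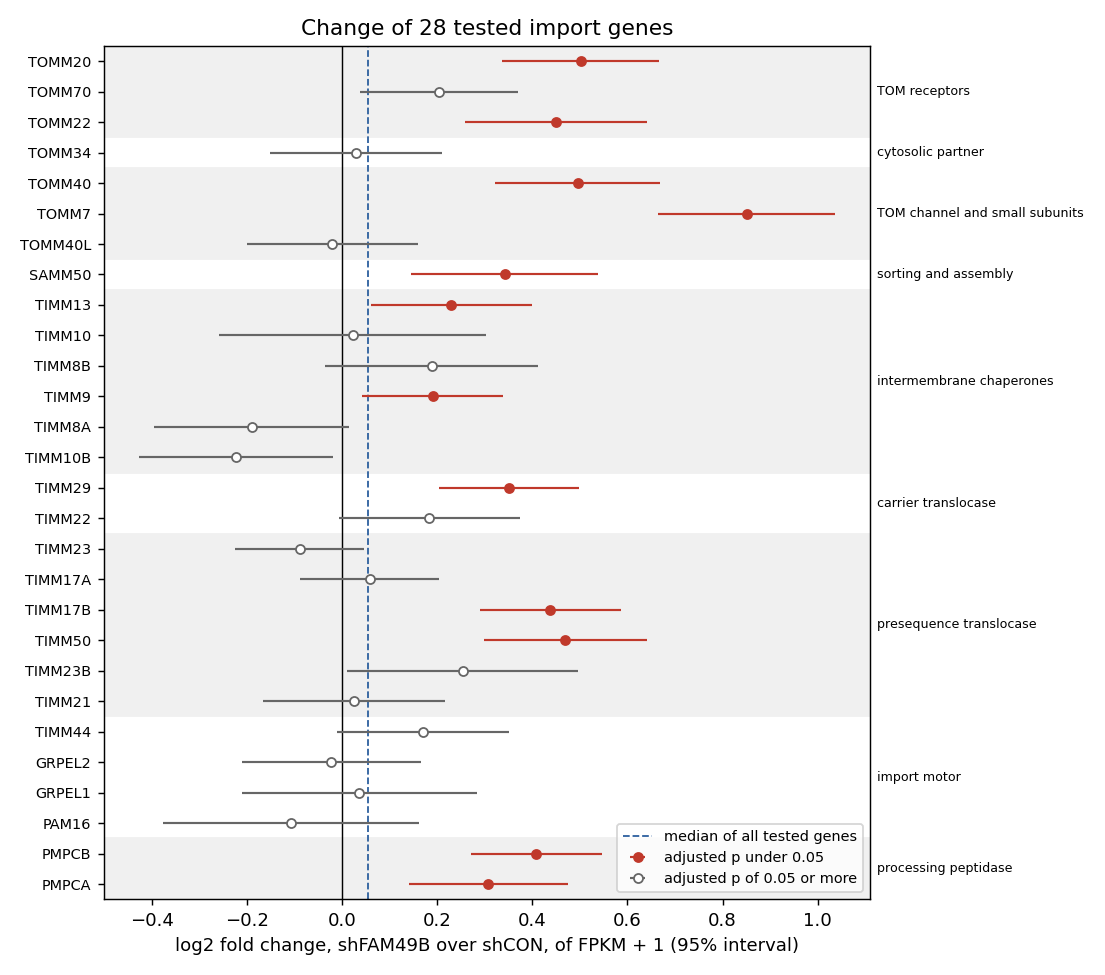
Log2 fold change of FPKM + 1, shFAM49B over shCON, for the 28 tested import genes with 95% intervals from limma, grouped by role, filled where the adjusted p is under 0.05, with a dashed line at the median of all tested genes (0.05). TOMM7 stands furthest to the right at 0.85, while the 4 motor genes have intervals that include 0 and TIMM8A and TIMM10B lie to the left.

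SAMM50, the core of the sorting machinery for barrel proteins such as TOMM40, had 12.99 and 13.8 FPKM in shFAM49B against 11.0 and 9.76 FPKM in shCON, 1.29-fold higher (log2 fold change 0.34, SE 0.0775, limma adjusted p = 0.0206). That call was lost without either shFAM49B library (limma adjusted p = 0.0575 and 0.0992), without shCON replicate 2 (0.0944) and under 3 of the 4 other scalings. Of its partners MTX1, MTX2 and MTX3, the metaxins, looked at after their values were seen, only MTX1 was called, at 7.003 and 7.18 FPKM in shFAM49B against 5.15 and 5.15 FPKM in shCON (limma adjusted p = 0.00778). The MTX1 call did not hold as TPM, relative to recovered reads, with voom or without shCON replicate 1 (limma adjusted p = 0.0521). MTX2 and MTX3 had log2 fold changes of 0.05 and -0.07 and did not pass.

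The small TIM chaperones of the intermembrane space showed both signs. They act as hexamers of TIMM9 with TIMM10, and of TIMM8A with TIMM13, and TIMM10B joins the first kind at TIM22. TIMM13 had 45.7 and 48.4 FPKM in shFAM49B against 38.3 and 41.6 FPKM in shCON (1.18-fold, limma adjusted p = 0.0422). TIMM9 had 20.2 and 19.8 FPKM in shFAM49B against 16.95 and 17.8 FPKM in shCON (1.15-fold, limma adjusted p = 0.0489). Both calls were lost without any 1 of the 4 libraries and under all 4 other scalings, in which their log2 fold changes ran from -0.04 to 0.05. TIMM13 also shares 28.9% and TIMM9 30.5% of exon bases with neighbouring genes.

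TIMM8A had 7.54 and 8.69 FPKM in shFAM49B against 9.37 and 9.38 FPKM in shCON (log2 fold change -0.19, 95% interval -0.40 to 0.02, limma adjusted p = 0.117). TIMM10B had 6.50 and 7.43 FPKM in shFAM49B against 8.13 and 8.43 FPKM in shCON (log2 fold change -0.22, 95% interval -0.43 to -0.02, limma adjusted p = 0.077). Neither passed, although both shFAM49B libraries were below both shCON libraries for each gene. Rescaled to TPM, divided by recovered reads or with voom both were called lower, at -0.39 to -0.49. TIMM10 (20.6 ± 0.127 FPKM in shFAM49B, 20.3 ± 3.31 in shCON) and TIMM8B (20.1 ± 1.47 in shFAM49B, 17.5 ± 1.64 in shCON; SD, n = 2 each) did not pass.

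In the carrier translocase TIM22, TIMM29, a subunit found in animals, had 18.3 and 19.2 FPKM in shFAM49B against 14.6 and 14.3 FPKM in shCON. It rose 1.29-fold (log2 fold change 0.35, SE 0.0584, limma adjusted p = 0.00836). The call did not hold as TPM, relative to recovered reads or with voom (log2 fold change 0.13 to 0.14). The channel gene TIMM22 had 12.9 and 13.3 FPKM in shFAM49B against 10.8 and 12.1 FPKM in shCON and did not pass (log2 fold change 0.18, limma adjusted p = 0.104). AGK, a lipid kinase that is also a TIM22 subunit and was likewise looked at after its values were seen, rose 1.33-fold to 9.09 ± 0.207 FPKM in shFAM49B, against 6.85 ± 0.0958 FPKM in shCON (SD, n = 2 each; limma adjusted p = 0.00901). As TPM (limma adjusted p = 0.12) or relative to recovered reads (0.0882) AGK did not pass, nor without shCON replicate 1 (0.0516) or shCON replicate 2 (0.0559).

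The presequence translocase split into genes that rose and genes that did not pass. TIMM50, its receptor, had 21.4 and 23.6 FPKM in shFAM49B against 16.0 and 15.9 FPKM in shCON, 1.41-fold higher (log2 fold change 0.47, SE 0.0679, limma adjusted p = 0.00572). TIMM17B had 30.3 and 30.7 FPKM in shFAM49B against 21.6 and 22.9 FPKM in shCON, 1.37-fold higher (log2 fold change 0.44, SE 0.0586, limma adjusted p = 0.00468). TIMM17A, the alternative form of the same core subunit, had 32.6 and 31.4 FPKM in shFAM49B against 31.4 and 29.96 FPKM in shCON (log2 fold change 0.06, 95% interval -0.09 to 0.20, and -0.12 to -0.18 under the other scalings). TIMM17A thus barely separated the groups, while TIMM17B did so clearly. TIMM17B shares 3.01% of its exon bases with PQBP1 on the opposite strand, which was also called higher (1.40-fold, limma adjusted p = 0.00335). The part that this overlap plays was not tested.

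TIMM23, the other core subunit and the second most abundant import gene by its mean over all 4 libraries (TOMM40 exceeded it in both shFAM49B libraries), had 51.8 and 52.9 FPKM in shFAM49B against 56.7 and 54.9 FPKM in shCON. Its log2 fold change of -0.09 did not pass as deposited (95% interval -0.22 to 0.05, limma adjusted p = 0.233), but under each of the 4 other scalings TIMM23 was called lower, at -0.31 to -0.37. TIMM23B, a near copy, had 5.10 and 4.48 FPKM in shFAM49B against 3.61 and 4.11 FPKM in shCON and did not pass (limma adjusted p = 0.0855). Of the 50-base stretches of TIMM23, 16.97% also occur in TIMM23B, so reads of these 2 genes may be divided uncertainly. TIMM21, which links TIM23 to the TOM complex, averaged 4.08 ± 0.127 FPKM in shFAM49B and 3.99 ± 0.151 FPKM in shCON (SD, n = 2 each).

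No gene of the import motor passed as deposited, when 42.2% of all tested genes did. TIMM44, which tethers the motor to the channel, had 24.2 and 27.2 FPKM in shFAM49B against 22.6 and 22.8 FPKM in shCON (log2 fold change 0.17, 95% interval -0.01 to 0.35, limma adjusted p = 0.112). GRPEL1, the nucleotide exchange factor of mitochondrial HSP70, had 14.5 and 15.6 FPKM in shFAM49B against 13.4 and 16.0 FPKM in shCON. Its paralog GRPEL2 had 18.8 and 17.1 FPKM in shFAM49B against 18.9 and 17.5 FPKM in shCON. The groups overlapped for both, and the 95% intervals of their log2 fold changes were -0.21 to 0.28 and -0.21 to 0.17. With voom GRPEL2 was called lower (log2 fold change -0.25, limma adjusted p = 0.0115). PAM16, a J-like regulator, had 1.97 and 1.77 FPKM in shFAM49B against 2.06 and 2.11 FPKM in shCON, from 63 to 93 reads per library (log2 fold change -0.11, limma adjusted p = 0.454). Its partners outside the name rule, chosen here after their values were seen, did not pass either as deposited. HSPA9, the mitochondrial HSP70 itself, averaged 61.1 ± 1.67 FPKM in shFAM49B and 59.3 ± 2.29 FPKM in shCON, and the J protein DNAJC19 averaged 6.92 ± 0.444 FPKM in shFAM49B and 7.42 ± 0.868 FPKM in shCON (SD, n = 2 each). HSPA9 was called lower under each of the 4 other scalings, at a log2 fold change of -0.18 to -0.25, and DNAJC19 was called lower with voom.

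Both subunits of the matrix processing peptidase rose. PMPCB, the catalytic subunit, had 22.6 and 22.7 FPKM in shFAM49B against 16.6 and 16.99 FPKM in shCON, 1.35-fold higher (log2 fold change 0.41, SE 0.0544, limma adjusted p = 0.00461). PMPCA, the substrate-binding subunit, had 20.5 and 22.3 FPKM in shFAM49B against 17.4 and 16.8 FPKM in shCON, 1.253-fold higher (log2 fold change 0.31, SE 0.0665, limma adjusted p = 0.0178). The PMPCA call was lost without shFAM49B replicate 2, shCON replicate 1 or shCON replicate 2 (limma adjusted p = 0.0794, 0.0613 and 0.0854) and under all 4 other scalings. PMPCB shares 12.99% of its exon bases with DNAJC2 on the opposite strand, which did not pass (limma adjusted p = 0.229).

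Ratios within a library do not depend on a factor that scales the whole library. TIMM17A over TIMM17B was 1.08 and 1.02 in shFAM49B and 1.45 and 1.31 in shCON, so TIMM17A exceeded its paralog less in shFAM49B. TOMM40 over TOMM40L was 8.997 and 10.8 in shFAM49B and 6.72 and 6.95 in shCON. TIMM8A over TIMM8B was 0.395 and 0.411 in shFAM49B and 0.572 and 0.502 in shCON, and TIMM23 over TIMM23B was 10.2 and 11.8 in shFAM49B and 15.7 and 13.4 in shCON. In these 4 pairs the groups did not overlap, nor, narrowly, in PMPCA over PMPCB (0.907 and 0.983 in shFAM49B, 1.05 and 0.987 in shCON). Separation was common in these data. Among all tested single genes, both shFAM49B libraries lay above both shCON libraries for 43.1% and below them for 31.6%. The share among ratios of other gene pairs was not computed. GRPEL1 over GRPEL2 overlapped, at 0.770 and 0.915 in shFAM49B and 0.708 and 0.912 in shCON. TOMM20 over TOMM20L also overlapped, with TOMM20L at 5 to 12 reads. A 2-sided exact permutation test over 2 against 2 libraries cannot go below p = 0.3333, the value of each of the 5 separated pairs, so none of these 7 differences could pass.

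**Figure D3:**
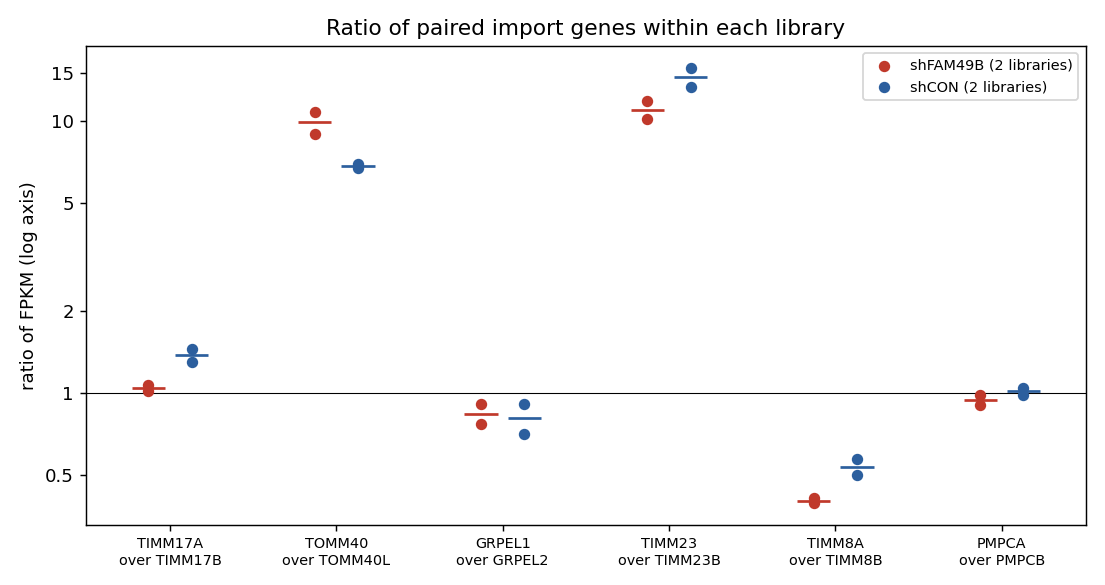
Ratio of FPKM of 6 paired import genes within each library, on a log axis, with 1 point per library and bars at the group means. The shFAM49B points lie below the shCON points for TIMM17A over TIMM17B, TIMM8A over TIMM8B and TIMM23 over TIMM23B, and above them for TOMM40 over TOMM40L.

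How many import genes rose depended on the scaling of the libraries. The deposited FPKM place shFAM49B higher than division by each library's own reads does, and conversion to TPM shifted the log2 fold change of the tested genes by -0.24 at the median. As TPM, 7 import genes were higher and 3 lower, when 11.6% of all tested genes were higher and 31.7% lower. The 7 were the 6 genes called higher under every scaling and TOMM20, and the 3 were TIMM23, TIMM8A and TIMM10B. The same 7 and 3 genes were called from recovered reads, when 12.5% of all tested genes were higher and 30.3% lower. With voom the same 7 were higher and 6 import genes lower, TOMM34, TIMM17A and GRPEL2 besides the 3, when 14.5% of all genes were higher and 37% lower. After quantile normalization 8 were higher and TIMM23 lower, when 19.2% of all genes were higher and 17.8% lower. The median of the 28 import genes was, as TPM, -0.04, and that of all tested genes -0.17. Measured against the median of all tested genes, the import median was higher by 0.14 as deposited, 0.12 as TPM, 0.11 relative to recovered reads, 0.13 with voom and 0.02 after quantile normalization. By that measure 14 import genes stood above the median gene under all 5 scalings, 9 below it under all 5, and 5 on both sides. Of the 12 genes called higher as deposited, 11 were among the 14, and the exception was TIMM13. The 12 were chosen by their rise in these same libraries, so this overlap is not independent support. The share of all tested genes above the median gene under all 5 scalings was not counted.

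**Figure D4:**
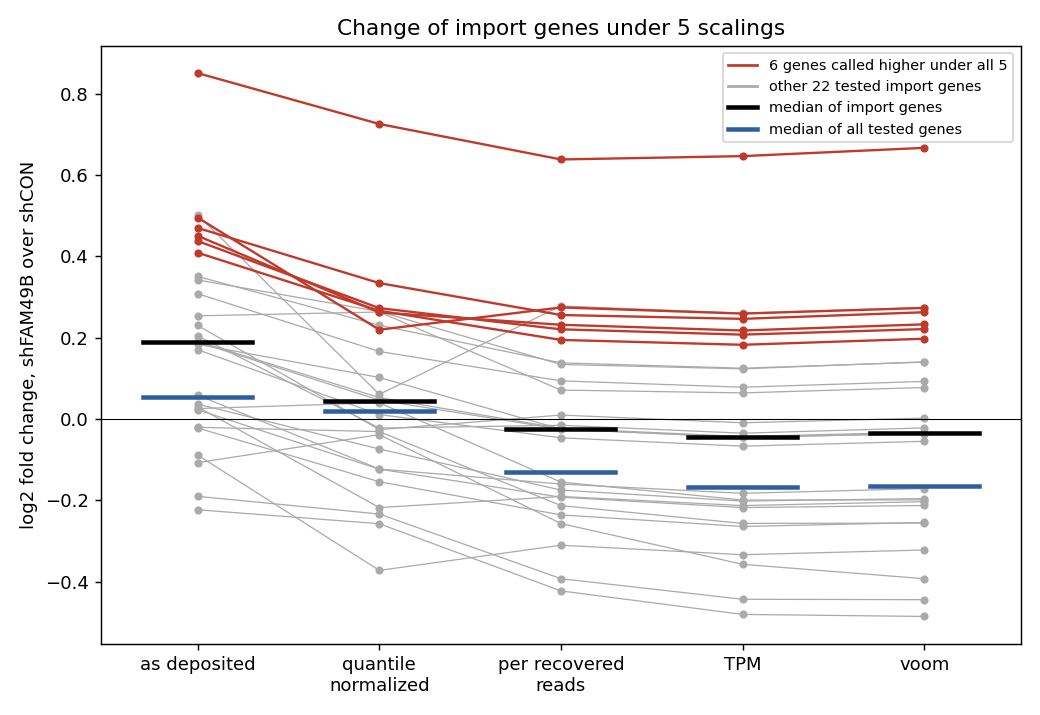
Log2 fold change (shFAM49B over shCON) of the 28 tested import genes under 5 scalings, 1 line per gene, with bars for the median of the import genes and of all tested genes. The 6 coloured lines were called higher under all 5, and the import median lies above the median of all tested genes by 0.02 to 0.14.

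Other genes of the import pathway were counted from lists chosen with earlier results of these data known. Of 20 further import genes, 17 were tested, 7 (41.2%) rose, 1 (5.88%) fell and 9 did not pass. Their median log2 fold change was 0.26. Of all tested genes 26.4% were higher and 15.8% lower. Under the other scalings 2 to 6 of the 17 were higher and 2 to 4 lower, and the median was 0.03 to 0.16. Of all tested genes 11.6% to 19.2% were then higher and 17.8% to 37% lower. OXA1L, which inserts proteins into the inner membrane from the matrix, had 39.9 and 41.2 FPKM in shFAM49B against 25.0 and 26.9 FPKM in shCON (1.56-fold, limma adjusted p = 0.00249). MIPEP, an intermediate peptidase that trims some presequences further, rose 1.57-fold to 7.95 ± 0.63 FPKM in shFAM49B, against 5.07 ± 0.0357 FPKM in shCON (SD, n = 2 each). MTCH2, an insertase of the outer membrane, rose 1.32-fold, and XPNPEP3, an aminopeptidase that acts after the processing peptidase, 1.41-fold. As TPM neither MTCH2 nor XPNPEP3 passed (limma adjusted p = 0.0597 and 0.0518), nor did MTCH2 after quantile normalization (0.0734) or XPNPEP3 without shCON replicate 2 (0.0509). The 1 gene that fell was IMMP1L, a subunit of the inner-membrane peptidase, at 3.33 and 3.39 FPKM in shFAM49B against 4.47 and 4.16 FPKM in shCON (limma adjusted p = 0.0354). Under each of the 4 other scalings IMMP1L was also called lower, at a log2 fold change of -0.26 to -0.59. IMMP1L is outside the naming rule and its call was lost without any 1 library.

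Of 15 mitochondrial chaperones and proteases, which fold and turn over imported proteins, 9 (60.0%) rose, none fell and 6 did not pass. Their median log2 fold change was 0.47. Of all tested genes 26.4% were higher and 15.8% lower. Under the other scalings 7 or 8 of the 15 were higher and none lower. Of all tested genes 11.6% to 19.2% were then higher and 17.8% to 37% lower. HSPD1, the HSP60 chaperonin, had 353 and 356 FPKM in shFAM49B against 233 and 214 FPKM in shCON (1.59-fold, limma adjusted p = 0.00245), but its log2 fold change was 0.02 after quantile normalization. TRAP1, the mitochondrial HSP90, rose 1.68-fold, the prohibitin PHB2 1.62-fold and the matrix protease LONP1 1.56-fold. These 4 were named for the smallest p in their list, and the smallest called rise there was that of the presequence protease PITRM1, 1.24-fold. Of 14 cytosolic chaperones and ribosome-associated factors that deliver proteins to mitochondria, 13 were tested, 10 (76.9%) rose and 1 (7.69%) fell. Under the other scalings 6 or 7 were higher and 1 or 2 lower. The 1 that fell as deposited was the J protein DNAJA1, to 29.4 ± 0.472 FPKM in shFAM49B, against 41.8 ± 3.06 FPKM in shCON (SD, n = 2 each). DNAJB1, a co-chaperone of cytosolic HSP70, rose 3.63-fold to 69.0 ± 2.54 FPKM in shFAM49B, against 19.0 ± 0.318 FPKM in shCON, and HSPA8, the constitutive cytosolic HSP70, 2.78-fold to 248 ± 8.91 FPKM in shFAM49B, against 89.0 ± 4.27 FPKM in shCON (SD, n = 2 each). The nascent-chain binding factors BTF3 and NACA rose 1.54-fold and 1.52-fold.

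A list of regulators of mitochondria held factors for nuclear mitochondrial genes, factors of the mitochondrial genome (TFAM, TFB1M, TFB2M) and the kinase PINK1. It had calls in both directions, with 4 of 12 tested genes higher and 4 lower (33.3% each). Of all tested genes 26.4% were higher and 15.8% lower. Under the other scalings 3 or 4 regulators were higher and 4 to 6 lower. Of all tested genes 11.6% to 19.2% were then higher and 17.8% to 37% lower. TFAM, which packages and transcribes the mitochondrial genome, had 15.1 and 13.7 FPKM in shFAM49B against 24.9 and 24.1 FPKM in shCON (log2 fold change -0.73, limma adjusted p = 0.00234). The zinc finger factor YY1 had 22.1 and 21.2 FPKM in shFAM49B against 30.01 and 28.9 FPKM in shCON (log2 fold change -0.43, limma adjusted p = 0.00472). The nuclear receptor ESRRA rose 1.42-fold and TFB1M, which methylates mitochondrial ribosomal RNA, 1.53-fold. NRF1, named here because its recognition letters were searched, had 8.27 and 8.39 FPKM in shFAM49B against 6.02 and 5.34 FPKM in shCON (1.47-fold, limma adjusted p = 0.00732). The letters of YY1 and of ETS factors were searched too. GABPA, an ETS factor of this list, was called lower, with a mean of 11.1 FPKM in shFAM49B against 13.8 FPKM in shCON (log2 fold change -0.29, limma adjusted p = 0.0422). NRF1 was thus called higher, and YY1 and GABPA lower. Factors that bind CCAAT or the heat shock element were not on this list. Whether these changes bear on the import genes was not tested.

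Related gene families were counted the same way. Of 76 tested mitochondrial ribosomal proteins, 45 (59.2%) were higher and 1 lower, with a median log2 fold change of 0.32, and under the other scalings 14 to 24 were higher and 3 to 10 lower. Of 36 tested nuclear complex I subunits, 26 (72.2%) were higher and 2 lower, with a median of 0.34, and under the other scalings 9 to 13 were higher and 2 to 4 lower. Of the 13 protein-coding genes of the mitochondrial genome, whose products are not imported, none was higher and 6 were lower, with a median of -0.33, and under the other scalings none was higher and 9 to 11 were lower. These counts stand beside 42.9% of import genes and 26.4% of all tested genes called higher as deposited, and 0% and 15.8% called lower. Under the other scalings 11.6% to 19.2% of all tested genes were higher and 17.8% to 37% lower. As TPM the shares called higher were 25.0% of import genes, 18.4% of mitochondrial ribosomal proteins and 25.0% of complex I subunits, against 11.6% of all tested genes. By share called higher, the order of the families as TPM thus differed from that as deposited. By median log2 fold change, import genes stood below mitochondrial ribosomal proteins and complex I subunits as deposited and under each other scaling. As TPM these medians were -0.04, 0.09 and 0.13. No test between the families was made.

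Of 17 pseudogenes of TOMM and TIMM genes in the table, 13 were listed at 0 in all libraries. TOMM20P4 was the only one to reach a mean of 1 FPKM, at 6.15 and 8.30 FPKM in shFAM49B against 4.22 and 6.09 FPKM in shCON (limma adjusted p = 0.13). Its groups barely separated.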

How the data were processed

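Total RNA of 4 OVCAR8 samples was made into libraries with the NEBNext Ultra kit, per the labels' protocols. The authors deposited FPKM for 58735 genes. Aligner and counter: not given in the sources used here. Mouse builds (GRCm38, mm10) stand in the submitters' processing notes, but all 58735 human identifiers occur in GENCODE release 29 (GRCh38) with the same start and end, so GRCh38 coordinates are given. Whether counting used strand is not stated.

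FPKM times the deposited gene length gave whole reads for 100% of values (tolerance 0.001 of a read), 15639559 to 16875353 per library. One read in 1 kb is worth 0.0541 to 0.0668 FPKM. The denominator implied by the deposited values was 0.941 and 0.919 of the recovered reads in shFAM49B and 1.08 and 1.10 in shCON, so a scaling between libraries is built into the values. Replicates differed by more than counting noise (chi-square per gene 3.48 within shFAM49B and 3.90 within shCON).

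The 13775 genes averaging 1 FPKM or more were fitted by limma (version 3.58.1, R 4.3.3) as log2(FPKM + 1), shFAM49B over shCON, with a trended prior (2 residual and 3.32 prior degrees of freedom), 2-sided, with Benjamini-Hochberg adjustment and a threshold of 0.05. This scale understates changes of low genes. Fold changes are ratios of group means. Ratios of paired genes were tested by exact permutation. The procedure was tested on simulated reads divided by each library's own total. That simulation held no scaling like the one built into the deposited values, so it did not test the calls against it. Alternatives were a pseudocount of 0.1, no filter, a filter at 5 FPKM, TPM, FPKM from recovered reads, quantile normalization, limma voom on recovered reads, leaving out each library, and a replicate block. Full values were given for the 6 largest and 4 smallest changes, for both genes of each pair and for up to 4 genes with the smallest p in each other list, and other genes are named by role. The members and lists were chosen with earlier results of these data known.

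Exon overlaps come from GENCODE release 29, shared 50-base stretches from its transcripts, and promoters from RefSeq (GRCh38.p14).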

Additional observations from a re-analysis of the deposited data

How the results depend on the processing

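With 2 libraries a group, only shifts well above the library spread could be detected, and p-values rest partly on the spread shared across genes. Import genes called higher numbered 7 as TPM, 7 from recovered reads and 7 with voom, against 12 as deposited, and 8 to 9 without 1 library. Import genes called lower numbered 1 with the filter at 5 FPKM, 3 as TPM, 3 from recovered reads, 1 after quantile normalization and 6 with voom, and 0 without any 1 library. Their median log2 fold change was -0.044 as TPM, -0.024 from recovered reads, 0.043 after quantile normalization and -0.034 with voom, and 0.16 to 0.24 without 1 library. Its excess over the median of all genes was 0.21 without a filter, 0.057 at 5 FPKM, 0.12 as TPM, 0.11 from recovered reads, 0.024 after quantile normalization and 0.11 to 0.19 without 1 library.

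Over all genes, 2185 were higher without a filter, 1597 as TPM, 1722 from recovered reads, 2001 with voom and 1897 to 2495 without 1 library, against 3642 as deposited. Lower were 1378 without a filter, 1322 at 5 FPKM, 4362 as TPM, 4173 from recovered reads, 5098 with voom and 1027 to 1529 without 1 library, against 2170 as deposited. Of the further import genes, 2 were higher as TPM and 4 from recovered reads. Lower among these were 0 without a filter, 0 at 5 FPKM, 2 as TPM, 2 from recovered reads, 2 after quantile normalization, 4 with voom, and 0 without any 1 library. Without 1 library the lone library of its group is assumed to vary like the other group.

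Signs turned under other scalings in genes with small changes. As TPM the log2 fold change was -0.0092 for TIMM13, -0.21 for TOMM34, -0.035 for TOMM70, -0.18 for TIMM17A, -0.067 for TIMM44, -0.22 for TIMM10, -0.045 for TIMM8B, -0.043 for TIMM9, -0.20 for GRPEL1, -0.045 for TIMM22 and -0.20 for TIMM21. From recovered reads it was -0.19 for TOMM34, -0.015 for TOMM70, -0.16 for TIMM17A, -0.046 for TIMM44, -0.19 for TIMM10, -0.025 for TIMM8B, -0.023 for TIMM9, -0.17 for GRPEL1, -0.025 for TIMM22 and -0.15 for TIMM21. After quantile normalization it was -0.026 for TIMM13, -0.22 for TOMM34, -0.022 for TOMM70, -0.12 for TIMM17A, -0.12 for TIMM10 and -0.074 for GRPEL1. With voom it was -0.20 for TOMM34, -0.022 for TOMM70, -0.17 for TIMM17A, -0.055 for TIMM44, -0.21 for TIMM10, -0.036 for TIMM8B, -0.032 for TIMM9, -0.20 for GRPEL1, -0.036 for TIMM22 and -0.20 for TIMM21. The scaling factor alone moves all genes of a library together, and the cause of the remaining differences was not tested. Without 1 library the log2 fold change ran from -0.049 to 0.11 for TOMM34, from -0.14 to 0.18 for TIMM10, from -0.085 to 0.16 for GRPEL1, from -0.089 to 0.045 for GRPEL2, from -0.071 to 0.031 for TOMM40L and from -0.0052 to 0.057 for TIMM21.

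The replicate numbers were not treated as pairs, since replicate 1 minus replicate 2 in shFAM49B and in shCON correlated at -0.0132 over 13775 genes. With the replicate block 12 import genes were higher and 0 lower, TIMM9 was lost and TOMM70 gained, and of the further import genes 0 were lower. Over all genes 3429 were higher and 2036 lower with the block. Of 535 single-gene values over 45 genes under the alternatives, 437 kept direction and call and 45 turned sign. Counted over both signs, 44 lost the call and 16 gained one. Without a filter the calls of TIMM13, TIMM9, PMPCA and SAMM50 were lost.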

Other observations

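Among regulators, ATF5, a transcription factor of the mitochondrial stress response, stood at 2.54 and 2.83 FPKM in shFAM49B against 5.24 and 4.32 FPKM in shCON (limma adjusted p = 0.00857). PINK1, the kinase held on the TOM complex of damaged mitochondria, had 5.41 and 6.05 FPKM in shFAM49B against 4.36 and 4.495 FPKM in shCON (limma adjusted p = 0.0302). The PINK1 call did not hold as TPM, relative to recovered reads or with voom. Both genes were picked out after their values were seen. The disulfide relay that folds small TIM proteins did not pass, with CHCHD4 at 15.9 and 15.4 FPKM in shFAM49B against 12.04 and 13.8 FPKM in shCON (limma adjusted p = 0.0507) and GFER at 8.35 and 9.53 FPKM in shFAM49B against 7.02 and 7.51 FPKM in shCON (limma adjusted p = 0.0536).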
